A study of Mus musculus with 12 samples.

Results

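The transcripts described here belong to 10 genes of oxygen sensing, vessel growth and growth factor signalling, chosen by name out of the 24781 gene rows counted in tumour-associated macrophages (TAMs). They are *Hif1a*, the targets of its product *Vegfa*, *Bnip3*, *Slc2a1* and *Adm*, and the growth factor and cytokine genes *Hbegf*, *Igf1*, *Tgfb1*, *Pdgfb* and *Osm*. All 10 had a row in the table, 8 were abundant enough to be tested, and *Adm* and *Igf1* were not. The cells came from tumours of MC38, a mouse colon adenocarcinoma line, in wild-type (WT) mice that received either picrotoxin, which blocks the GABA-gated chloride channel of the GABA type A receptor, or DMSO, in which the drug was dissolved. Each library was made from 100 cells sorted on day 7 as CD45+CD11b+F4/80high, and there were 6 DMSO and 6 picrotoxin libraries. All mice carried the tumour, no allele differed between the groups, and the age and sex of the mouse behind a library are not in the labels. The methods assign a mouse to each library, but a legend of the study gives fewer mice than libraries, and if libraries share mice the p-values below are too small.

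HIF-1α, the product of *Hif1a*, is hydroxylated and degraded while oxygen is plentiful. When oxygen falls it is stabilised, pairs with ARNT and binds short hypoxia response elements near genes of glucose uptake, glycolysis, mitophagy and vessel growth. Its control is mostly at the level of the protein, so the mRNA does not measure its activity. In tumours, macrophages gather in poorly perfused areas, where they are known as a source of VEGF-A and of growth factors that act on endothelial cells, fibroblasts and tumour cells.

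Library totals were between 219630 and 309617 molecules with DMSO and between 201697 and 257016 with picrotoxin, a molecule being a distinct barcode counted for a gene. The ribosomal RNA precursor Rn45s took 7.37% to 13.7% of a DMSO library and 11.7% to 15.2% of a picrotoxin library. All 12 macrophage markers were detected, with a summed share of 0.869% to 1.21% with DMSO and 1.05% to 1.18% with picrotoxin (exact permutation test, p = 0.489). Single markers of this list did move. *Itgam* (log2 fold change 0.38) and *Mrc1* (0.48) were higher with picrotoxin at an unadjusted p under 0.05 (edgeR adjusted p = 0.408 and 0.428), and no other macrophage marker reached that p. Of the 14 fibroblast and matrix markers 12 were detected, *Fap* and *Tagln* being at 0, and their sum was 14 to 688 molecules with DMSO and 9 to 41 with picrotoxin (exact permutation p = 0.154). DMSO replicate 5, with 688, and DMSO replicate 3, with 165, stood apart in this sum. Several of these markers were lower with picrotoxin at an unadjusted p under 0.05. Among them were *Col3a1* at a log2 fold change of -2.57 and *Col1a1* at -5.50 (edgeR adjusted p = 0.109 and 0.148). A single library held 195 of the 201 *Col1a1* molecules with DMSO. Endothelial markers summed to 0 to 5 molecules in a DMSO library and 0 to 2 in a picrotoxin library, with *Tek*, *Tie1*, *Robo4* and *Sox17* at 0. T and NK cell markers summed to 0 to 1 molecules with DMSO and, around a median of 0.5, to 0 to 22 with picrotoxin (exact permutation p = 0.348). In that list *Cd3e*, *Cd3g*, *Cd8a* and *Gzma* were at 0. Epithelial markers summed to 8 to 14 and 9 to 21 molecules, with *Epcam*, *Krt18*, *Krt19*, *Krt20* and *Cldn4* at 0 (exact permutation p = 0.0476). *Cdh1* alone held 63 of these molecules with DMSO and 89 with picrotoxin, and *Krt8*, *Vil1* and *Cldn7* had 2, 2 and 1 over all libraries. The part of Rn45s or of other cell types in the results below was not tested, beyond a fit without the Rn45s row that is given at the end. Libraries numbered 1 and 2 had differed from those numbered 3 to 6 in an earlier look at these data, and the labels name no batch. Values within these strata, or in replicates 3 to 6 alone, are therefore given for some of the genes. In bulk libraries of this kind, fewer cells with a transcript and less of it per cell cannot be told apart.

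None of the 8 tested genes differed between picrotoxin and DMSO at an adjusted p under 0.05 in edgeR (quasi-likelihood test, Benjamini-Hochberg adjustment), where 5 of 9580 tested genes did, or 0.0522%. The point estimates were higher with picrotoxin for *Hif1a*, *Vegfa*, *Hbegf* and *Tgfb1* and lower for *Bnip3*, *Slc2a1*, *Pdgfb* and *Osm*. *Bnip3* and *Slc2a1*, both lower, had an unadjusted p under 0.05. That is 2 of 8, against 7.77% of all tested genes in either direction and 4.11% in the lower direction. No gene of the 8 was among the 3.65% of all genes higher at that threshold. DESeq2 and limma-voom gave 0 of the 8 genes at an unadjusted p under 0.05, and 387 and 742 of all 9580 tested genes. The lowest adjusted p over 23 other ways of processing the libraries was 0.393 (*Bnip3* without picrotoxin replicate 4). All levels below are numbers of molecules per library divided by a DESeq2 size factor, and they are compared between libraries for a gene, not between genes.

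**Figure D1:**
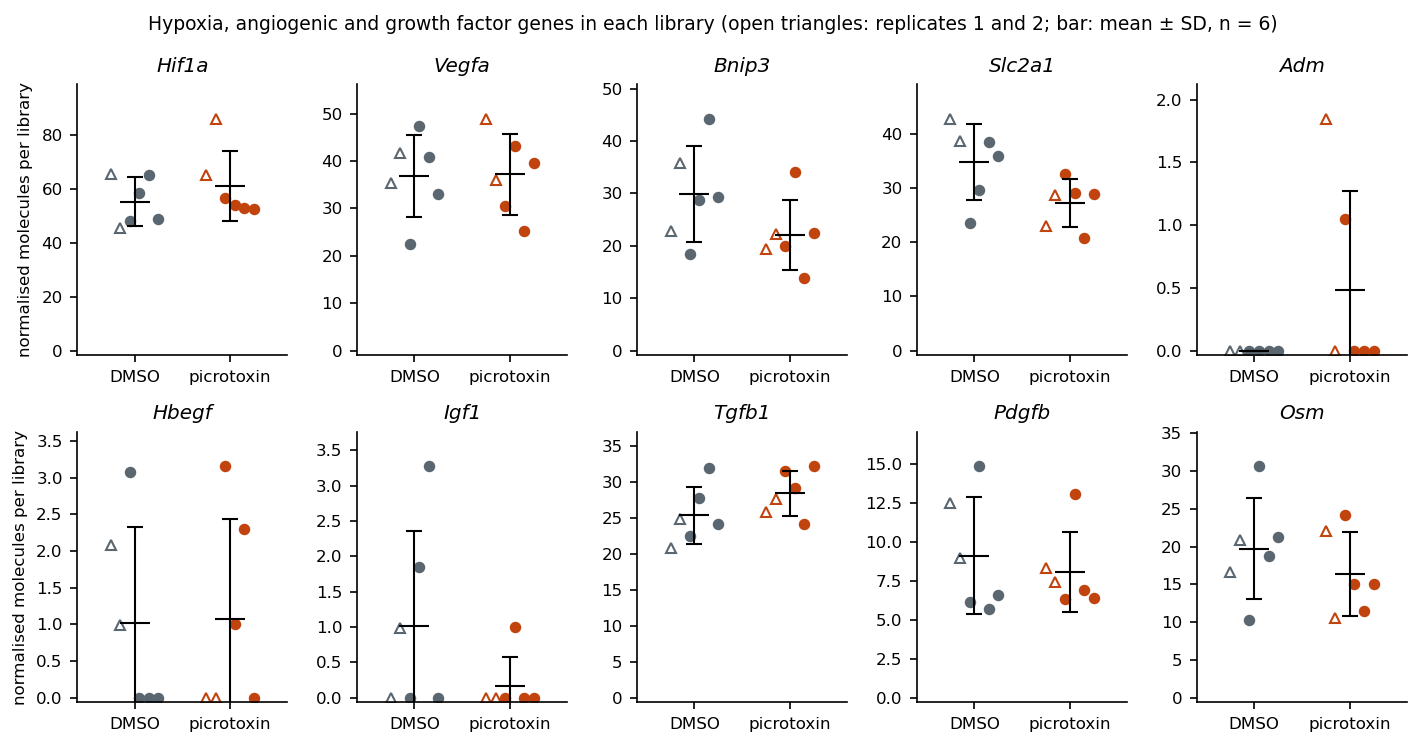
Normalised molecules per library (vertical axis, linear, its own range for each gene) of the 10 genes in the 6 DMSO (grey) and 6 picrotoxin (orange) libraries, with triangles for replicates 1 and 2 and the mean ± SD in black. The groups overlap for every gene, and *Adm*, *Hbegf* and *Igf1* have at most 3.27 normalised molecules in any library.

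*Hif1a* (chr12:73901375-73947530 on GRCm38, plus strand) had 721 molecules over all libraries. It ranged from 45.7 through a median of 53.8 to 65.5 normalised molecules with DMSO, and from 52.5 through 55.5 to 86.0 with picrotoxin. The groups overlapped, and only picrotoxin replicate 2, at 86.0, was above the highest DMSO library. The means were 55.4 ± 8.95 and 61.3 ± 13.0 (SD, n = 6 each), a log2 fold change of 0.16 ± 0.14 (SE; 95% interval -0.13 to 0.45; edgeR adjusted p = 0.854). On the linear scale this interval runs from -8.54% to 36.4%. Without picrotoxin replicate 2 the log2 fold change was 0.04, and without DMSO replicate 1 it was 0.21, the ends of the range over single libraries left out. In replicates 1 and 2 the mean was 55.6 with DMSO and 75.7 with picrotoxin, whereas in replicates 3 to 6 it was 55.3 and 54.1, and the difference between these strata was not tested. Stretches of up to 196 bases are shared with 2 other annotated genes, so the count carries some uncertainty.

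The regulators of HIF-1α showed no member past the threshold. Of 17 genes in a list of HIF subunits, hydroxylases and degradation factors, 14 were tested, 11 were estimated higher and 3 lower, none had an unadjusted p under 0.05, and the median log2 fold change was 0.04 against -0.01 over all tested genes. The smallest p in edgeR belonged to *Ep300*, a coactivator of HIF-1α, with 23.1 ± 5.52 and 27.3 ± 7.59 normalised molecules (log2 fold change 0.25 ± 0.19, adjusted p = 0.817). *Arnt*, the partner subunit, had 6.24 ± 1.31 with DMSO and 7.26 ± 4.21 with picrotoxin. *Egln1*, the main oxygen-sensing prolyl hydroxylase, had 19.97 ± 4.44 and 20.8 ± 4.96, a log2 fold change of 0.07 with an interval from -0.33 to 0.47. *Epas1*, which encodes HIF-2α, had 6 molecules in 3 of 12 libraries and was not tested.

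To place the oxygen-responsive genes beside their sequences, the 250 bases before the start of each transcript were read from RefSeq (GRCm38.p6), where 7 of the 10 genes had an entry, *Vegfa* with 2 starts. The core letters of a hypoxia response element, ACGTG and GCGTG, were searched on both strands, so CACGT and CACGC count as matches, and overlapping matches counted as 1. Of 32851 such windows in the genome, 38.6% held at least 1 match, 13.4% at least 2 and 1.42% at least 4. All 7 genes had a match in at least 1 window. The windows of *Bnip3* and *Slc2a1*, the targets estimated lower, and of the first *Vegfa* start are printed on the strand of the gene, with the matches in capitals, because these are the genes that the comparison of hypoxia targets turns on. *Bnip3* (chr7:138909507-138909756, minus strand) held 4 separate matches, *Slc2a1* (chr4:119108495-119108744, plus strand) held 2, and this *Vegfa* window (chr17:46032378-46032627, minus strand) held 0.
Bnip3: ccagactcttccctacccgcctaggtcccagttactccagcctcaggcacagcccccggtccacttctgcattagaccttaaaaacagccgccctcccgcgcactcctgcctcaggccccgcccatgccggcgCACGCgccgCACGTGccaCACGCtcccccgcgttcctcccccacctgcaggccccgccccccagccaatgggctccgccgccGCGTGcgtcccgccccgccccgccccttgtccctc
Slc2a1: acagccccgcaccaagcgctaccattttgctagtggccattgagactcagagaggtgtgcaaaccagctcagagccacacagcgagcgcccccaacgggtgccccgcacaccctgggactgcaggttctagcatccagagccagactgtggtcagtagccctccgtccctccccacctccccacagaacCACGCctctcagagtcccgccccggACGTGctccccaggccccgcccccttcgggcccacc
Vegfa: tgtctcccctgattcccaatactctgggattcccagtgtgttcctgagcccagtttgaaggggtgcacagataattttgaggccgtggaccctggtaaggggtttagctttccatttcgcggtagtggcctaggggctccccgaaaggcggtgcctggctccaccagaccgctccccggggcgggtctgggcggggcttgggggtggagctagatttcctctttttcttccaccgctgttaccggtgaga
The other *Vegfa* window, at chr17:46025164-46025413, lay inside the annotated span of the gene and held 2 matches. Only through this window does *Vegfa* count among the 7 genes with a match. The windows of *Hif1a* and *Adm* held 2 each, those of *Igf1* and *Tgfb1* 1 each. Those of *Hif1a* and *Igf1* also lay inside the annotated span of their genes. A match is a string of letters and not a bound site, and the absence of one says nothing about elements outside the window.

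*Bnip3* (chr7:138890836-138909519, minus strand) encodes a protein of the outer mitochondrial membrane that recruits autophagosomes, and it is a classical hypoxia-induced gene. It had 18.4, 29.0 and 44.2 normalised molecules as the lowest, median and highest DMSO library, and 13.8, 21.1 and 34.1 with picrotoxin. The ranges overlapped, with 5 of 6 picrotoxin libraries below the DMSO mean and 1, replicate 4, above it. The means were 29.9 ± 9.17 and 22.0 ± 6.71 (SD, n = 6 each), giving a log2 fold change of -0.44 ± 0.20 (SE; 95% interval -0.85 to -0.02; edgeR adjusted p = 0.621). An exact permutation test of the normalised molecules gave p = 0.121. The estimate was below 0 in 23 of 23 alternatives and its unadjusted p was under 0.05 in 12 of them. Without DMSO replicate 5, the highest library and the one richest in matrix markers, it was -0.29, the estimate nearest 0 of all settings, with an unadjusted p above 0.05. Without DMSO replicate 3, the lowest DMSO library for this gene and the one with 165 matrix molecules, it was -0.54, with an unadjusted p under 0.05. Without both it was -0.40, with an unadjusted p above 0.05 (edgeR adjusted p = 0.905). The direction held within both strata, with means of 29.3 and 20.8 in replicates 1 and 2 and of 30.2 and 22.6 in replicates 3 to 6. Transcripts of *Bnip3* share stretches of at least 100 bases at 98% identity or more with 4 other annotated genes, the longest over 858 bases, and how the authors counted reads with several positions is not given in the sources used here, so its count is uncertain.

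*Slc2a1* (chr4:119108711-119137983, plus strand) encodes GLUT1, the glucose transporter that hypoxia induces in many cells. It had 23.6, 37.2 and 42.7 normalised molecules as the lowest, median and highest DMSO library, and 20.7, 28.8 and 32.6 with picrotoxin. None of the 6 picrotoxin libraries reached the DMSO mean, 2 were below the lowest DMSO library, and the ranges overlapped. The means were 34.8 ± 6.99 and 27.2 ± 4.41 (SD, n = 6 each), giving a log2 fold change of -0.35 ± 0.17 (SE; 95% interval -0.69 to -0.01; edgeR adjusted p = 0.628). An exact permutation test of the normalised molecules gave p = 0.0433. The estimate was below 0 in 23 of 23 alternatives and its unadjusted p was under 0.05 in 13 of them. The means were 40.7 and 25.9 in replicates 1 and 2 and 31.9 and 27.8 in replicates 3 to 6, and in the latter alone the log2 fold change was -0.19 (edgeR adjusted p = 0.863). Without DMSO replicates 3 and 5, which hold most matrix molecules, it was -0.42, with an unadjusted p under 0.05 (edgeR adjusted p = 0.854). A stretch of 108 bases is shared with 1 other annotated gene.

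*Vegfa* (chr17:46016993-46032369, minus strand) encodes VEGF-A, the chief growth factor for endothelial cells. It had 22.5, 38.1 and 47.3 normalised molecules as the lowest, median and highest DMSO library, and 25.3, 37.9 and 48.8 with picrotoxin, so the ranges nearly coincided. The means were 36.8 ± 8.62 and 37.3 ± 8.54 (SD, n = 6 each), a log2 fold change of 0.04 ± 0.17 (SE; edgeR adjusted p = 0.983). The 95% interval, from -0.31 to 0.38, corresponds to -19.3% to 30.4%, so these libraries cannot tell a change within that range from none. *Vegfa* had no other annotated gene on its position and shared no long segment with another transcript.

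*Adm* (chr7:110627661-110629820, plus strand) encodes adrenomedullin, a vasodilator peptide that hypoxia strongly induces. It was at 0 in all 6 DMSO libraries, which allows up to 1.97 CPM (counts scaled to a common library size) over the 1519120 molecules counted in that group by the limit of 3 counts, the exact Poisson interval being 0 to 2.43. Picrotoxin libraries held 3 molecules, 2 in replicate 1 and 1 in replicate 3, or 2.19 CPM (exact Poisson interval 0.452 to 6.40). The groups could not be told apart at this depth (exact permutation test on normalised molecules, p = 0.455). With no filter on low counts edgeR gave *Adm* an unadjusted p under 0.05 (adjusted p = 0.556), which rests on these 3 molecules. Such limits and intervals take in the error of counting and nothing else.

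**Figure D2:**
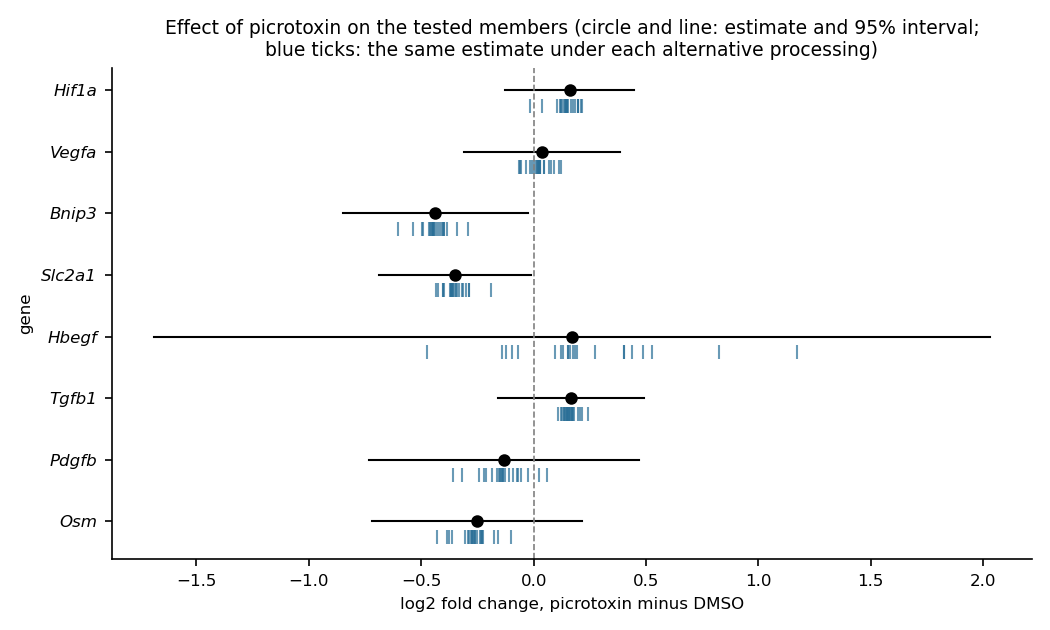
Log2 fold change of picrotoxin over DMSO (horizontal axis) for the 8 tested genes, with the 95% interval in black and the estimate under each alternative processing as a blue tick. Only the intervals of *Bnip3* and *Slc2a1* lie below 0 from end to end, their ticks are all below 0, and the interval of *Hbegf* is the widest, from -1.69 to 2.03.

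The same question was asked of a wider list of hypoxia-inducible genes. Besides the genes already described, the list held 36 genes, of which 32 were tested, 13 estimated higher and 19 lower, and none passed the adjusted threshold. An unadjusted p under 0.05 was found for 4 in the lower direction, against 4.11% of all genes, and for 2 in the higher direction, against 3.65%. The median log2 fold change was -0.18, against -0.01 over all tested genes. It was 0.02, with 15 of 32 lower, without DMSO replicates 3 and 5, and 0.02 over the 14 genes with a mean above 10. Single libraries of either group also moved it, to -0.06 without DMSO replicate 5, -0.06 without picrotoxin replicate 1 and -0.07 without DMSO replicate 6. It was -0.20 without DMSO replicate 2, and -0.25 in replicates 3 to 6 alone, which keep DMSO replicates 3 and 5. The size of this shift thus varied with the libraries kept and rested on scarce transcripts. DMSO replicates 3 and 5 are the libraries with 165 and 688 matrix molecules, and the part of matrix cells in the shift was not tested.

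*Hk2*, the hexokinase that traps glucose in the cell, was the gene of this list with the smallest p. It had 19.5, 25.9 and 31.5 normalised molecules as the lowest, median and highest DMSO library and 13.8, 17.5 and 21.9 with picrotoxin, and no picrotoxin library reached the DMSO mean. The log2 fold change was -0.52 ± 0.18 (SE; edgeR adjusted p = 0.408), and an exact permutation test gave p = 0.00866. Its unadjusted p in the fits stayed under 0.05 in 23 of 23 alternatives. Because *Hk2* was picked by its p in these same libraries, neither result is independent evidence. *Ndrg1*, a stress-response gene widely used as a hypoxia marker, had 9.56 ± 1.77 with DMSO and 5.55 ± 1.72 with picrotoxin (log2 fold change -0.76 ± 0.29, edgeR adjusted p = 0.475). In the other direction, *Arg1*, which encodes arginase 1 and marks many tumour macrophages, had 406 ± 82.6 and 514 ± 149 normalised molecules (log2 fold change 0.35 ± 0.14, edgeR adjusted p = 0.514). For *Arg1* an exact permutation test gave p = 0.152, and the ranges of the groups overlapped. In replicates 3 to 6 alone its log2 fold change was 0.52, with an unadjusted p under 0.05. The other 3 genes under 0.05, named here after their values were seen, were *Higd1a* at -0.40, *Cxcr4* at 0.34 and *Vldlr* at -2.06. *Vldlr* had 17 molecules with DMSO, 12 of them in replicates 3 and 5, and 3 with picrotoxin. Without that pair of DMSO libraries its log2 fold change was -0.96, with an unadjusted p above 0.05. *Ndrg1*, at -0.63, and *Cxcr4*, at 0.27, also had an unadjusted p above 0.05 there.

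**Figure D3:**
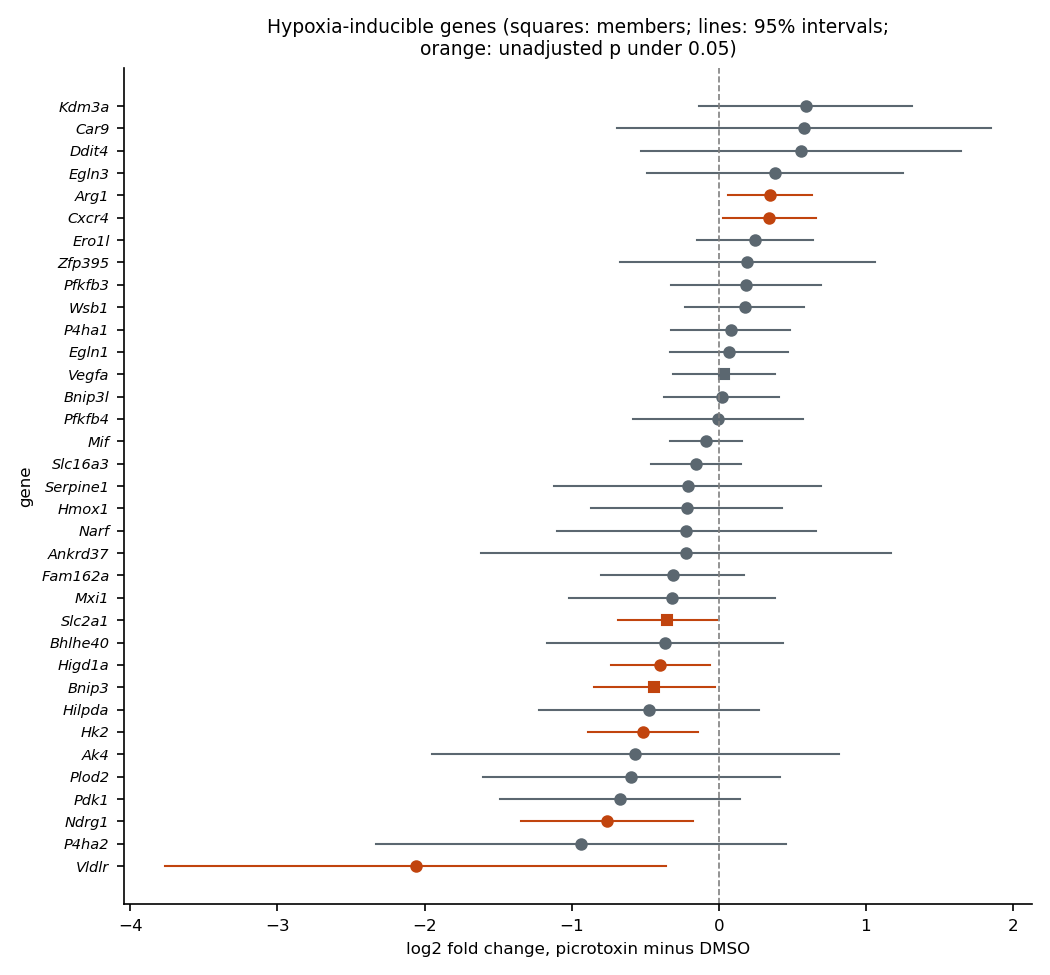
Log2 fold change of picrotoxin over DMSO (horizontal axis, with 95% intervals) for each tested hypoxia-inducible gene, squares marking *Vegfa*, *Slc2a1* and *Bnip3* and orange an unadjusted edgeR p under 0.05. *Hk2*, *Bnip3*, *Slc2a1*, *Higd1a*, *Ndrg1* and *Vldlr* lie to the left, and *Arg1* and *Cxcr4* to the right.

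Transport of glucose and lactate, the process *Slc2a1* serves, gave a mixed picture. Of 11 other genes of uptake, phosphorylation and lactate exchange 9 were tested, 5 were estimated higher and 4 lower, and *Hk2* and *Slc16a1* had an unadjusted p under 0.05, both lower. *Slc16a1*, which encodes the lactate carrier MCT1, had 7.22 ± 1.90 normalised molecules with DMSO and 3.78 ± 2.08 with picrotoxin (log2 fold change -0.90 ± 0.36, edgeR adjusted p = 0.508). In replicates 3 to 6 alone its log2 fold change was -0.62, with an unadjusted p above 0.05. *Slc16a3*, the hypoxia-inducible lactate exporter MCT4, had 49.5 ± 7.98 and 43.99 ± 9.43 (log2 fold change -0.16, interval -0.46 to 0.15). The other hexokinases were *Hk1*, at 0.28 with an interval from -0.13 to 0.69, and *Hk3*, at -0.18 with an interval from -0.60 to 0.24. *Slc2a3*, which encodes the transporter GLUT3, had 8 molecules in 7 of 12 libraries and was not tested.

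Of 16 other mitophagy genes 14 were tested, 6 were estimated higher and 8 lower, and none had an unadjusted p under 0.05. The nearest relative of *Bnip3*, *Bnip3l*, had 20.7 ± 5.36 normalised molecules with DMSO and 21.2 ± 3.89 with picrotoxin (log2 fold change 0.02, interval -0.37 to 0.41). The smallest p belonged to *Map1lc3b*, whose product coats autophagosomes, with 18.2 ± 5.61 and 23.3 ± 6.07 (log2 fold change 0.36 ± 0.21, edgeR adjusted p = 0.742). The difference between the estimates of *Bnip3* and *Bnip3l* was not tested.

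Among 23 other genes of the VEGF and angiopoietin system 11 were tested, 5 were estimated higher and 6 lower. *Nrp2*, a co-receptor for VEGF and semaphorins, had the smallest p of all the lists. Its lowest, median and highest DMSO libraries were at 12.9, 14.2 and 18.4 normalised molecules, and its picrotoxin libraries at 17.0, 22.3 and 32.2, so that the ranges met only at their edges. The log2 fold change was 0.62 ± 0.19 (SE; edgeR adjusted p = 0.312; exact permutation p = 0.00649), with all 6 picrotoxin libraries above the DMSO mean and an unadjusted p under 0.05 in 23 of 23 alternatives. *Nrp2* was named for its p in these same libraries, so the permutation test and the alternatives are not independent evidence. *Nrp1*, the related co-receptor that binds VEGF-A, had 45.1 ± 11.1 and 43.8 ± 10.1, a log2 fold change of -0.02 with an interval from -0.36 to 0.32. *Flt1*, the VEGF receptor of monocytes, had 32 molecules in 11 libraries and a log2 fold change of 0.37 with an interval from -0.76 to 1.503. *Kdr*, the main endothelial receptor, had 7 molecules in 5 libraries, and *Pgf* and *Vegfc*, ligands related to VEGF-A, had 3 and 2. *Sema3a*, a semaphorin that binds neuropilin 1, had 17 molecules with DMSO and 4 with picrotoxin (edgeR adjusted p = 0.605), and its unadjusted p, under 0.05 over all libraries, was above it without DMSO replicates 3 and 5. Its log2 fold change was -1.71 over all libraries and -1.54 without that pair.

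The receptor of adrenomedullin is the product of *Calcrl* joined to the accessory protein RAMP2 or RAMP3. *Calcrl* had 38 molecules in 11 libraries, with 2.30 ± 0.84 normalised molecules with DMSO and 4.01 ± 3.999 with picrotoxin (edgeR adjusted p = 0.801). *Ramp2* was at 0 in all libraries and *Ramp3* had 4 molecules in 4 libraries. *Ramp1*, which turns the *Calcrl* product into a receptor for a related peptide, had 17 molecules in 9.

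*Tgfb1* (chr7:25687002-25705077, plus strand) encodes TGF-β1, which is secreted in a latent form and released by integrins or proteases. It had 20.8, 24.5 and 31.9 normalised molecules as the lowest, median and highest DMSO library, and 24.2, 28.4 and 32.1 with picrotoxin. The means were 25.3 ± 3.98 and 28.4 ± 3.16 (SD, n = 6 each), a log2 fold change of 0.17 ± 0.16 (SE; 95% interval -0.16 to 0.49; edgeR adjusted p = 0.870). The ranges overlapped from 24.2 to 31.9, and 5 of the 6 picrotoxin values exceeded the mean of the DMSO values. The estimate was above 0 in 23 of 23 alternatives and its unadjusted p was never under 0.164.

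Of 29 other genes of the TGF-β pathway 22 were tested, 13 were estimated higher and 9 lower. The receptors *Tgfbr1*, with a log2 fold change of 0.02 and an interval from -0.27 to 0.31, and *Tgfbr2*, with 0.10 and an interval from -0.24 to 0.43, had estimates within the library-to-library error. *Nrros*, which anchors latent TGF-β1 on macrophages, had 32.9 ± 6.12 and 36.1 ± 9.41, and *Itgav*, a subunit of the integrins that release it, had 23.0 ± 1.33 and 22.9 ± 2.97. The gene of this list with an unadjusted p under 0.05 was *Tgfbi*, a TGF-β-induced matrix protein made by macrophages and fibroblasts. It had 479 ± 76.8 and 555 ± 47.7 normalised molecules (log2 fold change 0.22 ± 0.10, edgeR adjusted p = 0.571). Without DMSO replicates 3 and 5 its log2 fold change was 0.17, with an unadjusted p above 0.05. In replicates 3 to 6 alone its log2 fold change was 0.40, with an unadjusted p under 0.05.

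*Osm* (chr11:4236420-4241026, plus strand) encodes oncostatin M, a cytokine of the interleukin-6 family that myeloid cells release and that signals through gp130. It had 10.2, 19.8 and 30.6 normalised molecules as the lowest, median and highest DMSO library, and 10.6, 15.0 and 24.2 with picrotoxin. The ranges overlapped, with 4 of 6 picrotoxin libraries below the DMSO mean. The means were 19.7 ± 6.67 and 16.4 ± 5.56 (SD, n = 6 each), a log2 fold change of -0.25 ± 0.23 (SE; 95% interval -0.72 to 0.22; edgeR adjusted p = 0.862), and the estimate was below 0 in 23 of 23 alternatives. Its size rested partly on single libraries, being -0.10 without DMSO replicate 4, -0.16 without picrotoxin replicate 2, and -0.39 without picrotoxin replicate 3.

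Receptor genes for oncostatin M were scarce in the macrophages. *Il6st*, which encodes gp130, had 21 molecules in 11 libraries, and *Osmr*, the specific receptor chain, had 4 in 3 DMSO libraries. Of 18 other genes of this pathway 11 were tested, and 10 were estimated higher with picrotoxin and 1 lower, where 4709 of all 9580 tested genes were estimated higher. *Stat3*, the transcription factor downstream of gp130 and of many other receptors, had 35.2, 41.4 and 56.2 normalised molecules as the lowest, median and highest DMSO library and 46.7, 53.8 and 63.2 with picrotoxin (log2 fold change 0.35 ± 0.14, edgeR adjusted p = 0.495). *Jak2*, a kinase bound to such receptors, had 16.9 ± 4.14 and 23.0 ± 4.18 (log2 fold change 0.45 ± 0.19, edgeR adjusted p = 0.563). Both had an unadjusted p under 0.05 and lay above the DMSO mean in all 6 picrotoxin libraries, and the ranges overlapped. Neither kept that p without DMSO replicates 3 and 5, where their log2 fold changes were 0.29 for *Stat3* and 0.38 for *Jak2*.

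*Pdgfb* (chr15:79995874-80014977, minus strand) encodes the B chain of platelet-derived growth factor, which recruits pericytes and fibroblasts. It had 5.73, 7.76 and 14.8 normalised molecules as the lowest, median and highest DMSO library, and 6.31, 7.17 and 13.0 with picrotoxin. DMSO replicates 1 and 4 and picrotoxin replicate 4 were high, and the ranges overlapped. The means were 9.12 ± 3.76 and 8.07 ± 2.54 (SD, n = 6 each), a log2 fold change of -0.13 ± 0.30 (SE; 95% interval -0.73 to 0.47; edgeR adjusted p = 0.955). Platelet markers, given because platelets carry this growth factor, summed to 0 to 4 molecules in a DMSO library and 0 to 2 in a picrotoxin library.

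Of 6 other genes of PDGF ligands and receptors 4 were tested, 1 estimated higher and 3 lower. *Pdgfa*, the A chain, had 9.43 ± 2.19 and 8.17 ± 3.59 normalised molecules. *Pdgfc*, a ligand of the same family, had 14 molecules with DMSO, 8 of them in replicates 3 and 5, and 2 with picrotoxin (edgeR adjusted p = 0.532). Its unadjusted p, under 0.05 over all libraries, was above it without that pair. The log2 fold change of *Pdgfc* was -2.24 over all libraries and -1.63 without the pair. *Pdgfra* and *Pdgfrb*, the receptors found on fibroblasts and pericytes, had 16 molecules in 6 libraries and 5 in 2.

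*Hbegf* (chr18:36504927-36515805, minus strand) encodes heparin-binding EGF-like growth factor, which is shed from the membrane and binds the EGF receptor. It had 12 molecules in all, 6 in each group, spread over 3 DMSO and 3 picrotoxin libraries with at most 3 in a library. The lowest, median and highest DMSO libraries were at 0, 0.50 and 3.07 normalised molecules, and the picrotoxin libraries at 0, 0.50 and 3.15. The groups overlapped fully, and the log2 fold change of 0.17 ± 0.92 (SE; edgeR adjusted p = 0.986) had a 95% interval from -1.69 to 2.03. A change of several-fold either way was therefore not detectable at this depth. Its shedding enzymes were better covered, *Adam10* with 68.1 ± 7.73 and 78.0 ± 12.5 normalised molecules and *Adam17* with 48.5 ± 4.78 and 55.5 ± 7.86 (edgeR adjusted p = 0.756 for both). Of 19 other genes of the EGF family and its shedding 5 were tested and none had an unadjusted p under 0.05, and *Areg*, *Ereg* and *Egfr* had 5, 1 and 6 molecules.

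*Igf1* (chr10:87858265-87937042, plus strand) encodes insulin-like growth factor 1, a product of many resident and repair macrophages. It had 7 molecules with DMSO, 1 in replicate 2, 2 in replicate 4 and 4 in replicate 5, or 4.61 CPM (exact Poisson interval 1.85 to 9.49). With picrotoxin it had 1 molecule, in replicate 4, or 0.730 CPM (interval 0.0185 to 4.07). The mean of normalised molecules did not exceed 1, so *Igf1* was left out of the fit, and an exact permutation test gave p = 0.303. DMSO replicate 5, with 4 of the 8 molecules, was also the library with 688 matrix molecules, and the part of matrix cells in the count of *Igf1* was not tested.

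Of 15 other genes of the IGF system 7 were tested, 3 estimated higher and 4 lower. *Igf1r*, the receptor, had 60 molecules in 11 libraries and a log2 fold change of -0.17 with an interval from -1.09 to 0.75. *Irs1*, an adaptor of the receptor, and *Igfbp6*, a binding protein, were both lower with picrotoxin at an unadjusted p under 0.05 (edgeR adjusted p = 0.621 for *Irs1*). They had 12 and 11 molecules with DMSO and 2 each with picrotoxin, and without DMSO replicates 3 and 5 neither had an unadjusted p under 0.05. Their log2 fold changes were -2.03 and -1.93 over all libraries, and -1.84 and -1.13 without that pair.

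Over all these lists together, 125 of 190 genes other than the 10 were tested, 67 were estimated higher and 58 lower, and the median log2 fold change was 0.02. An unadjusted p under 0.05 was found for 15 of the 125, against 7.77% of all tested genes. Of these 15, 6 were higher and 9 lower, against 3.65% and 4.11% of all genes, and none passed the adjusted threshold (lowest edgeR adjusted p = 0.312). With DESeq2 the number under 0.05 was 9, and over all tested genes it went from 744 to 387. Without DMSO replicates 3 and 5 it was 8, and over all tested genes 514.

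Finally, it was asked whether the hypoxia genes varied together between libraries of a group. Log2 CPM of *Hif1a*, *Vegfa*, *Bnip3* and *Slc2a1* were centred on the group means and compared over the 12 libraries, which gave 6 pairs. Pearson's r was positive for all 6, from 0.12 to 0.69, and no pair had an adjusted p under 0.05. For *Vegfa* and *Bnip3*, r was 0.69 (permutation p = 0.0212, adjusted p = 0.127) and Spearman's rho 0.54 (permutation p = 0.0928, adjusted p = 0.557). For *Bnip3* and *Slc2a1*, r was 0.59 (permutation p = 0.0614, adjusted p = 0.184) and rho 0.41 (permutation p = 0.208, adjusted p = 0.625). For *Vegfa* and *Slc2a1*, r was 0.41 (permutation p = 0.219, adjusted p = 0.438) and rho 0.10 (permutation p = 0.760, adjusted p = 0.892).

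Leaving out the 2 libraries farthest from the median of the first gene moved these values. Without DMSO replicate 3 and picrotoxin replicate 5, where all 3 genes were low, r was 0.26 for *Vegfa* with *Bnip3* and -0.72 for *Vegfa* with *Slc2a1*, so both relations rested on those libraries. For *Bnip3* with *Slc2a1*, r was 0.44 without DMSO replicate 3 and picrotoxin replicate 4. The pairs of *Hif1a* had r of 0.31 with *Vegfa*, 0.27 with *Slc2a1* and 0.12 with *Bnip3* (permutation p = 0.352, 0.397 and 0.719, adjusted p = 0.476, 0.476 and 0.719). Their rho was 0.22, 0.31 and 0.05 (permutation p = 0.509, 0.351 and 0.892, adjusted p = 0.764, 0.702 and 0.892). Without DMSO replicate 1 and picrotoxin replicate 2 their r was 0.50, 0.04 and 0.29. Within replicates 3 to 6 r was between 0.51 and 0.82, again with no adjusted p under 0.05.

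**Figure D4:**
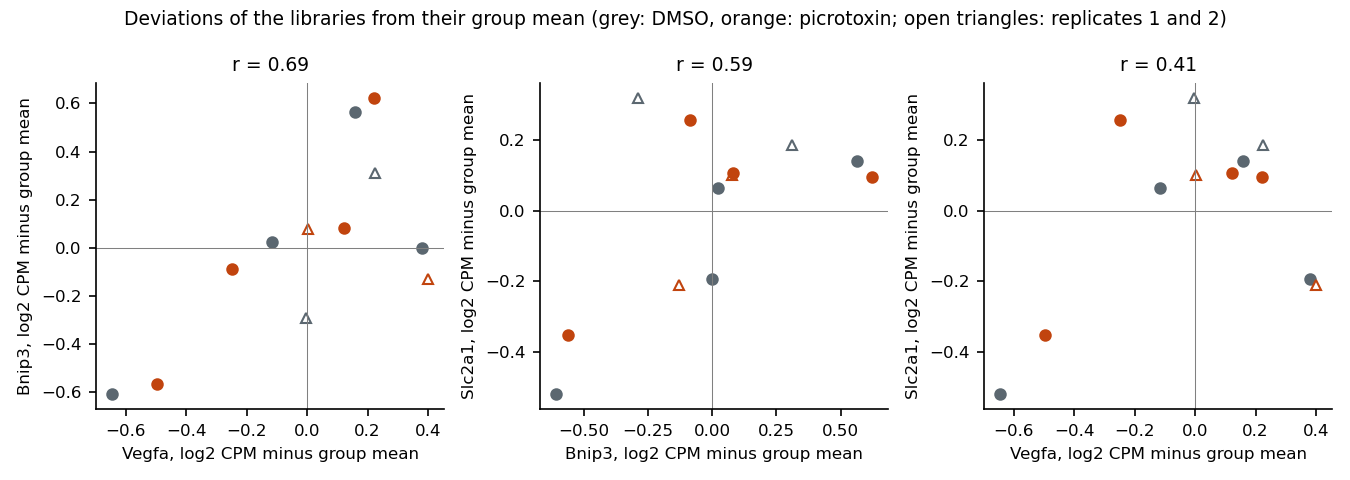
Deviation of each library from its group mean in log2 CPM for 3 pairs of *Vegfa*, *Bnip3* and *Slc2a1*, with DMSO in grey, picrotoxin in orange and triangles for replicates 1 and 2. DMSO replicate 3 and picrotoxin replicate 5 form the low corner of all 3 panels, and r is 0.69, 0.59 and 0.41 from left to right.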

How the data were processed

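RNA of 100 sorted cells per library was heat-fragmented, copied with a barcoded oligo-dT primer, amplified and sequenced. The authors mapped reads to mm10 with STAR, annotated them with refFlat and deposited counts of molecules (distinct barcodes) per gene, whole numbers without normalisation. Strand, multi-mapping reads and barcode errors were not described in the sources used here, so reads of a gene and of an antisense neighbour may not be separable; *Hif1a*, *Bnip3*, *Slc2a1*, *Adm*, *Igf1* and *Pdgfb* overlap a gene on the other strand. Priming favours 3′ ends and A-rich stretches. The table held 0 rows for spike-in RNAs. Totals ran from 201697 to 309617 molecules, and p-values measure the spread between libraries. The labels number the libraries within each group and do not say which mouse each came from.

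Counts were divided by DESeq2 size factors, and the 9580 genes with a mean above 1 were tested with the quasi-likelihood F-test of edgeR 4.0.16 (R 4.3.3, TMM, no covariates, all 12 libraries), the standard error being taken from F. p-values were adjusted over all 9580 genes (Benjamini-Hochberg). The fits were also run on counts simulated for independent libraries with the spread estimated from these data. That check does not cover shared mice, libraries rich in matrix molecules or the strata of replicates, and its outcome is not given here. Alternatives were the DESeq2 1.42.0 Wald test, which with an unadjusted p under 0.05 is the rule of the study, limma 3.58.1 voom, other scalings and filters, and other sets of libraries. Single values were compared by exact two-sided permutation tests, which for genes in the fit were added after seeing the data and, outside the 10, only for genes already chosen by their p, and correlations (prior count 2) by 100000 permutations within groups. Positions are those of GENCODE M21 on GRCm38, the assembly also called mm10. The 10 genes, the lists and the split into replicates 1 and 2 and 3 to 6 were chosen with earlier results of these data known. In each list up to 3 genes with an unadjusted p under 0.05 were named by smallest p, otherwise the gene with the smallest p, with receptors and partners named whatever their values. No gene of the 10 had at least 50 molecules in every library, which the search for genes of like pattern required, so none was run. The check of replicate numbers gave correlations between same-numbered libraries of -0.00492 to 0.126 over 6 pairs, 1 above 0.1, so the numbers were not taken as pairs.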

Additional observations from a re-analysis of the deposited data

Results flagged for a closer look

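*Pdgfb* in picrotoxin replicate 4 had 13.0 normalised molecules, far above the other picrotoxin libraries, whose highest value was 8.29 and lowest 6.31. It stood out by Dixon's test for a single distant value at the 95% level. This test was applied to 16 groups of 6 values, where chance gives about 0.8 such values and 1 was found.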

How the results depend on the processing

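Over 23 alternatives, 147 of 182 estimates for the 8 tested genes kept their direction and their side of an unadjusted p of 0.05, 21 kept the direction but lost that p, and 14 reversed. None had an adjusted p under 0.05. The reversals concerned *Hif1a*, *Vegfa*, *Pdgfb* and *Hbegf*, whose intervals spanned 0 over all libraries. *Hif1a* was at -0.0155 and *Pdgfb* at 0.0229 in replicates 3 to 6 alone. *Vegfa* was at -0.0185 with library totals, -0.0353 in replicates 3 to 6 and -0.0566 without DMSO replicates 3 and 5. Leaving out 1 library gave -0.0653 to 0.121 for *Vegfa*, -0.318 to 0.0578 for *Pdgfb*, -0.47 to 0.83 for *Hbegf*, 0.04 to 0.21 for *Hif1a*, -0.39 to -0.10 for *Osm*, 0.12 to 0.24 for *Tgfb1*, -0.60 to -0.29 for *Bnip3* and -0.43 to -0.29 for *Slc2a1*. The number of the 10 genes with an unadjusted p under 0.05 was 2, and 744 of all 9580 tested genes had one. It was 0 with DESeq2, limma-voom and replicates 3 to 6 alone, 1 without DMSO replicates 3 and 5, and 0 to 2 without 1 library (0 when DMSO 2, DMSO 5, picrotoxin 1 or picrotoxin 5 was left out). In these settings the number over all tested genes was 387, 742, 902, 514 and 611 to 825, in that order. With no filter on low counts, 1024 of 13815 tested genes were under 0.05. The number of the 10 genes was then 3, the third being *Adm*. With the replicate block it was 1, *Slc2a1* being at -0.34 with an adjusted p of 0.648 in edgeR, and the block gave 43 adjusted calls over all genes against 5; 2 of 6 libraries correlated best with their own number. The number of other pathway genes under 0.05, 15, was 9 with DESeq2, 8 with a mean above 10, where fewer genes were tested, 8 without DMSO replicates 3 and 5, and 7 to 20 without 1 library (7 when DMSO 3 or DMSO 6 was left out). Where no cause is given, it was not tested. Of all genes under 0.05, 52.96% were lower, and 70.5% with library totals as scaling. Without the Rn45s row *Bnip3* was at -0.458, *Slc2a1* at -0.369 and *Hif1a* at 0.138, and 12 genes had an adjusted p under 0.05 against 5. Exact permutation tests of the normalised molecules, chosen after seeing the data, gave p = 0.0433 for *Slc2a1* and p = 0.121 or more for the other 9 genes. The depth limits *Adm*, *Igf1* and *Hbegf* most.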
